A study of Mus musculus with 3 samples.

Results

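Cytoplasmic ribosomal protein genes encode the proteins of the large and small ribosomal subunits and of the P stalk, the arm of the large subunit that receives elongation factors. They were taken from the genes with an assigned binding region by symbol: Rpl or Rps with a number and an optional a, l, x or y, plus Rplp0 to Rplp2 and Rpsa. Kinases of the Rps6k family and pseudogenes were left out. The rule found 77 of the 16697 genes, 44 of the large subunit, 30 of the small subunit and 3 of the stalk. RefSeq names 81 protein-coding genes that fit the rule; Rpl10l, Rpl32l, Rpl39l and Rps6 are not analysed here. The 77 genes had 151 of the 31850 regions, and 4 of those regions were assigned to a pair of them. A symbol rule also misses genuine members of the ribosome such as Rps3a1 and Fau, whose values stand with the other gene lists.

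The regions come from chromatin immunoprecipitation and sequencing with an SRF antibody on whole mouse cornea of mixed background at about 8 weeks of age. SRF, serum response factor, is a transcription factor. The groups were Dstn-corn1 mutants, mice without working destrin (a protein that takes actin filaments apart), and wildtype mice, all untreated, with 1 SRF library for each genotype. Without a second library the spread between animals is unknown, and nothing could be tested. An input library was sequenced too but does not enter any value here. The sources used here do not say how many animals a library holds. The growth protocol in the labels speaks of mutants for all 3 libraries, and genotype was taken from the titles.

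All 3 regions of Dstn were listed at 0 in the mutant library, against heights of 35, 11 and 13 in the wildtype library, which fits the titles. Heights are peak signal values per region, and their depth is unknown because no read totals were used. The libraries differed as a whole: 16399 intervals were called by the authors in mutant cornea and 31282 in wildtype cornea, and the median region was 13 high in mutant and 28 high in wildtype. Heights were lower in mutant at 95.4% of all regions. Among 10 cornea marker genes 7 had a region and Col1a1 alone had one at its start, but binding does not report expression, so the tissue label could not be checked this way. Whole cornea mixes epithelial, stromal and endothelial cells, so a lower height from fewer cells of a type and one from less binding per cell cannot be told apart.

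Ribosomal protein genes are transcribed at high and matched levels in nearly all cells, because a ribosome needs its proteins in fixed proportions. Many mammalian ones start transcription at a short pyrimidine run, the 5′ TOP motif, through which mTOR signalling controls their translation, and many carry sites for ETS family, SP1 and YY1 factors near the start. SRF binds a motif called the CArG box and works with partners of the ETS family (the ternary complex factors) and with actin-sensing MRTF cofactors; it is best known for actin cytoskeleton and immediate early genes.

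Promoter stretches of 8 ribosomal protein genes follow, from RefSeq on GRCm38.p6 (the assembly also called mm10), 5′ to 3′ on the gene's strand. Rpl10a is shown because it held the CArG box of this set, and Rpl22, Rpl9, Rplp0 and Rpl5 because they had the 4 highest regions at a start. Rpl38, Rpl37 and Rps18 were chosen after their sequences were seen, as examples of the ETS core close to the start. Each stretch ends 10 bases after the RefSeq start, or 27 in Rplp0, and the RefSeq start of Rpl22 lies 152 bp upstream of the authors' gene start. Capitals mark a CArG box (with 1 mismatch allowed in Rplp0), the ETS core CCGGAAG, the SP box GGGCGG or a CTTT at the start.
Rpl10a, chr17:28328221-28328480, plus strand: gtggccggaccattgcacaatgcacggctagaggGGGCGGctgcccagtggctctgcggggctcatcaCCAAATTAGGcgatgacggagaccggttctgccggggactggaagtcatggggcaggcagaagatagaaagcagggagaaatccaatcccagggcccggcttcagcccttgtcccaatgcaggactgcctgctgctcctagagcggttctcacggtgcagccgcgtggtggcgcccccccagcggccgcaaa
Rpl22, chr4:152325566-152325735, plus strand: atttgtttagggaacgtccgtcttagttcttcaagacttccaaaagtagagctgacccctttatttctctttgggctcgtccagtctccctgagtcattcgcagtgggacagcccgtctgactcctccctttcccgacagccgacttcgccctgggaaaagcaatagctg
Rpl9, chr5:65391422-65391591, minus strand: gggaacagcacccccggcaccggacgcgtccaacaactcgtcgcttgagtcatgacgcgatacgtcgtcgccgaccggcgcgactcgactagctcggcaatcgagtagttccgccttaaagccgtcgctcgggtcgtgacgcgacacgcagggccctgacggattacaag
Rplp0, chr5:115559307-115559493, plus strand: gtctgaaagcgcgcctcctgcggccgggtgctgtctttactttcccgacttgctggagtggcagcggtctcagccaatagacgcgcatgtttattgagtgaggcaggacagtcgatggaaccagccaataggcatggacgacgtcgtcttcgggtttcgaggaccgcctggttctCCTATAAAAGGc
Rpl5, chr5:107900368-107900537, plus strand: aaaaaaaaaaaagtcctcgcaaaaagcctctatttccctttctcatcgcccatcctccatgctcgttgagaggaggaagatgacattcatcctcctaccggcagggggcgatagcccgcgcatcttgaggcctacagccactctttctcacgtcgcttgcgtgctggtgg
Rpl38, chr11:114668420-114668589, plus strand: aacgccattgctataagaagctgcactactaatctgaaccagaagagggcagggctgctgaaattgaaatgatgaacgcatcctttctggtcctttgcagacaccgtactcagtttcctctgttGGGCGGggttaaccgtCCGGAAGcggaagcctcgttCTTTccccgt
Rpl37, chr15:5116453-5116622, plus strand: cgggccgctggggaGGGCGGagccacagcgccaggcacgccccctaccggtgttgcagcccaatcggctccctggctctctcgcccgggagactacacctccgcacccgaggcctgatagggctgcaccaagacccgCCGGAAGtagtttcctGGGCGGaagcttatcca
Rps18, chr17:33955656-33955825, minus strand: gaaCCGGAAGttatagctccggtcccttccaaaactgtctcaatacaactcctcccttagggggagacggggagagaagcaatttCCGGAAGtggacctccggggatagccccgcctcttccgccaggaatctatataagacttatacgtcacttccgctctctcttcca

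SRF regions were found at most ribosomal protein gene starts. A region centred within 1 kb of the gene start, called a start region here, stood at 61 of the 77 genes (79.2%), against 48.3% of all genes. By subunit, 35 of 44 large-subunit genes, 23 of 30 small-subunit genes and 3 of 3 stalk genes had one. A CpG island overlapped 60 of the 61 start regions, against 86.3% of start regions of all genes; the one without was at Rpl4, a protein that lines the exit tunnel. With an interval anywhere in its assigned neighbourhood counted, 70 of the 77 genes were bound in mutant cornea, against 73.8% of all genes, and 77 of 77 in wildtype cornea, against 99% of all genes. All genes here means the 16697 with an assigned region. A gene enters that list by an interval in either library, and most intervals are wildtype ones. The high wildtype shares thus follow from the list. The 7 genes with no mutant interval were Rpl12, Rpl28, Rpl31, Rplp1, Rps27a, Rps27l and Rps4x.

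The heights at these starts were moderate and spread widely. The 61 start regions had a median height of 19 in mutant (range 6 to 72) and 33 in wildtype (range 9 to 246). Over the 8061 genes with a start region the medians were 14 in mutant and 23 in wildtype. In each library 24 of the 61 stood above the upper quartile of all start regions, while 7 in mutant and 8 in wildtype stood below the lower quartile. For scale, Egr1, an immediate early gene that SRF is known to bind, had 123 in mutant and 164 in wildtype, above the wildtype height of all but Rpl22, Rpl9 and Rplp0 among ribosomal protein starts.

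**Figure D1:**
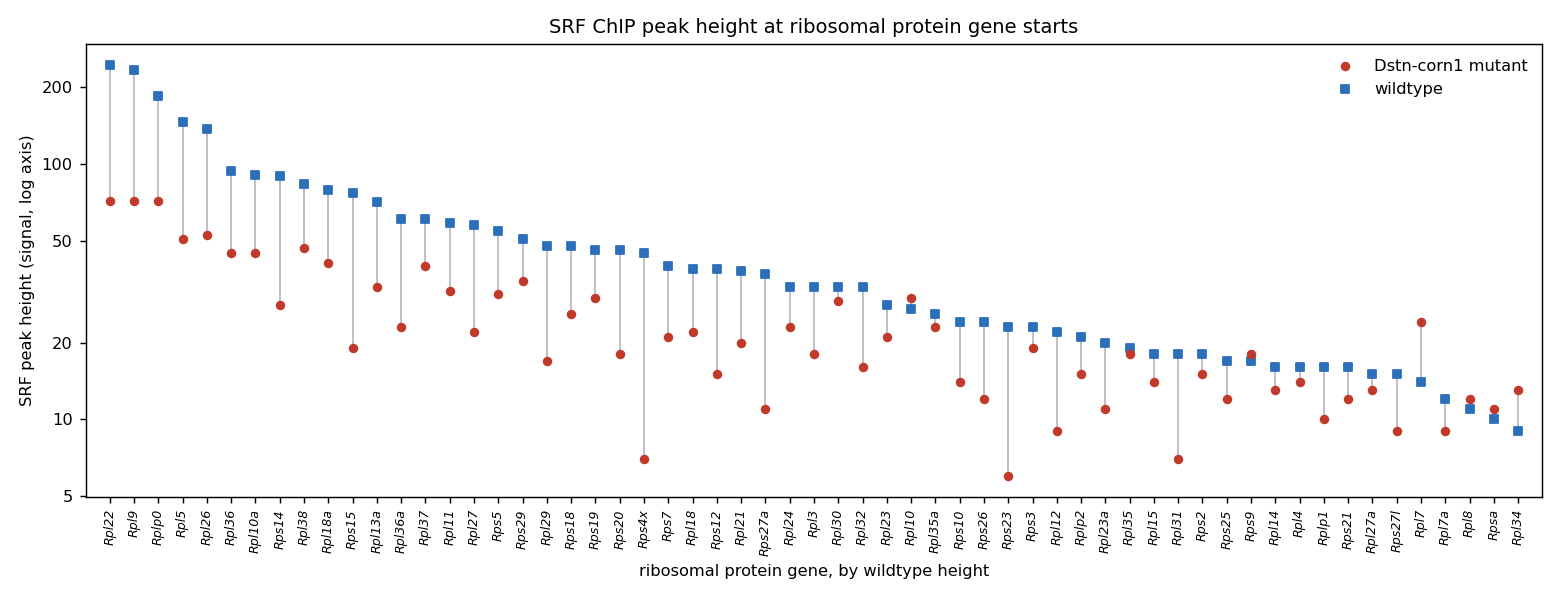
SRF peak height (signal, log axis) at the start of 59 of the 61 ribosomal protein genes with a start region, ordered by wildtype height, with 1 Dstn-corn1 mutant value (circle) and 1 wildtype value (square) per gene. As deposited the mutant value lies below the wildtype value at 53 of the genes shown and above it at 6, and with the libraries scaled to a common median it lies above at 41 and below at 18.

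The start heights were lower in the mutant library to the same degree as those of other genes. At the start, 55 of 61 ribosomal protein genes were lower in mutant, against 89.5% of all genes, but with the mutant heights multiplied by 2.1, which brings regions called in both libraries to a common median and, with 1 added to each height, lifts the log2 ratios of these starts by 0.96 to 1.06, 42 of 61 were higher and 19 lower. The median log2 ratio of mutant over wildtype was -0.81, against -0.79 over all genes, and 0.23 against 0.23 after scaling. A rule of size of 2-fold put 22 of 61 lower, against 38.8% of all genes, and 0 higher, against 0.323%. After scaling 1 was 2-fold lower, against 3.25% of all genes, and 6 were 2-fold higher, against 10.6%. The ribosomal protein genes thus sat inside the library-wide difference, and their share 2-fold lower was near the background. With the average signal of each region in place of the peak, 11 of 61 were 2-fold lower (18%), against 18.5% of all genes.

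Of the 61 start regions, 48 were called in both libraries (78.7%), against 58.9% of all genes and 71.9% of mitochondrial ribosomal protein genes. The share rose with height, and the excess over all genes lay in the lowest regions. Up to a mean height of 20 it was 58.3%, against 32.5% of all genes of that class. Between 20 and 40 it was 84.2%, against 85.2%, and between 40 and 80 it was 100%, against 98.8%. Above 80 it was 100% in both. A further 12 were called in wildtype alone, against 37.4% of all genes, and 1, at Rpsa, in mutant alone, against 3.73% of all genes.

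Among large-subunit genes, Rpl22 had the highest start region, with 72 in mutant and 246 in wildtype (log2 ratio -1.76). Rpl22 is an RNA-binding protein that mice can lack and still live, though their T cell development is blocked. In wildtype it ranked 43 among the 8061 start regions, and in mutant it shared rank 77 with Rpl9 and Rplp0. It also had regions centred at -6847, 3063, 7255 and 17563 bp from its start (negative values are upstream), of which the one at 7255 bp was highest, with 28 in mutant and 94 in wildtype.

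Rpl9 followed, with 72 in mutant and 235 in wildtype (log2 ratio -1.69). Its region also lies within 1 kb of the start of Lias, which makes lipoic acid and runs the opposite way, so the height cannot be given to either gene alone. Rpl5, which carries the 5S ribosomal RNA into the subunit and can hold back the p53 ligase Mdm2, had 51 in mutant and 147 in wildtype (log2 ratio -1.51). Rpl11, its partner in both tasks, had 32 in mutant and 59 in wildtype (log2 ratio -0.86). The partners of the 5S particle thus had start regions of different height, and both stood above the start medians of all genes in both libraries.

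Rpl26, which lies near the exit of the nascent chain, had 53 in mutant and 138 in wildtype at its start (log2 ratio -1.36). Rpl36 had 45 in mutant and 94 in wildtype (log2 ratio -1.05). Rpl10a, a protein of the L1 stalk that helps release spent tRNA, had 45 in mutant and 91 in wildtype (log2 ratio -1). Rpl38, whose loss in mice disturbs the skeleton and the translation of Hox mRNAs, had 47 in mutant and 84 in wildtype (log2 ratio -0.82).

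Before any scaling 6 of the 61 starts were higher in mutant, against 8.21% of all genes, and 4 of the 6 were of the large subunit. Rpl7 had 24 in mutant and 14 in wildtype (log2 ratio 0.74), and Rpl34 had 13 in mutant and 9 in wildtype (log2 ratio 0.49). At these heights a difference of a few units sets the ratio. Rpl10, one of the last proteins to join the subunit and needed for its release into translation, had 30 in mutant and 27 in wildtype (log2 ratio 0.15), the highest mutant value of the 6. Rpl8 had 12 in mutant and 11 in wildtype (log2 ratio 0.12), though its interval was called in wildtype alone. Rpl35, Rpl35a and Rpl30 were close to level, with 18, 23 and 29 in mutant and 19, 26 and 33 in wildtype. The average signal of the region was lower in mutant at 4 of these 6 starts, Rpl7, Rpl34, Rpl8 and Rps9, as at Rpl7 with 8.00 in mutant and 9.41 in wildtype. Of the 6 it was higher in mutant only at Rpl10, with 14.4 in mutant and 10.9 in wildtype, and at Rpsa, with 7.93 in mutant and 5.64 in wildtype. Some starts outside the 6 also had a higher average in mutant, such as Rpl30, with 12.2 in mutant and 11.3 in wildtype.

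In the small subunit the median start height was 15 in mutant and 37 in wildtype, and in the large subunit 22 in mutant and 33 in wildtype. The median log2 ratio was -0.81 in the small and -0.82 in the large subunit. In the small subunit 8 of 23 and in the large 13 of 35 genes were at least 2-fold lower in mutant, against 38.8% of all genes. The subunits thus had nearly the same median ratio.

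In the small subunit, Rps14, the gene tied to the anaemia of the human 5q deletion syndrome, had 28 in mutant and 90 in wildtype (log2 ratio -1.65). Rps4x, an X-linked protein, had the lowest log2 ratio of the 61 starts, -2.52, with 7 in mutant and 45 in wildtype. No interval was called there in mutant, and the region was assigned to no other gene. After scaling, Rps4x was the one ribosomal protein start that remained at least 2-fold lower, with a log2 ratio of -1.55.

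Rps15, a protein of the subunit's head, had 19 in mutant and 77 in wildtype (log2 ratio -1.96). Rps23, which lines the decoding centre, had 6 in mutant and 23 in wildtype (log2 ratio -1.78). Rps27a, which is made as a fusion with ubiquitin, had 11 in mutant and 37 in wildtype (log2 ratio -1.66). Rps15 had a mutant interval at its start, and Rps4x, Rps23 and Rps27a did not. Rpsa, also known as a laminin receptor, had 11 in mutant and 10 in wildtype, and Rps9 had 18 in mutant and 17 in wildtype. Rps29 had a pair of start regions: the higher, centred at -620 bp, had 35 in mutant and 51 in wildtype, and the one at the start, called in mutant alone, had 12 in mutant and 10 in wildtype.

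The stalk genes differed widely in height. Rplp0, the base of the stalk, had 72 in mutant and 186 in wildtype (log2 ratio -1.36), with Pxn, which encodes the focal adhesion protein paxillin, among its assigned neighbours. Rplp1 and Rplp2, the acidic proteins that bind Rplp0, had 10 and 15 in mutant and 16 and 21 in wildtype. Rplp0 thus stood among the highest starts of the family and its partners below the family's medians.

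The ratio followed the height of the region, in the family as in the rest. Among the 24 ribosomal protein starts with a mean height up to 20 the median log2 ratio was -0.36, against -0.58 over all genes of that class. Between 20 and 40 it was -0.86 over 19 genes, against -0.86. Between 40 and 80 it was -0.96 over 12 genes, against -1.19, and above 80 it was -1.44 over 6 genes, against -1.41. Higher regions thus had lower ratios. After scaling the medians were 0.65, 0.18, 0.09 and -0.38 from the lowest class to the highest. The heights that set the classes also enter the ratio.

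**Figure D2:**
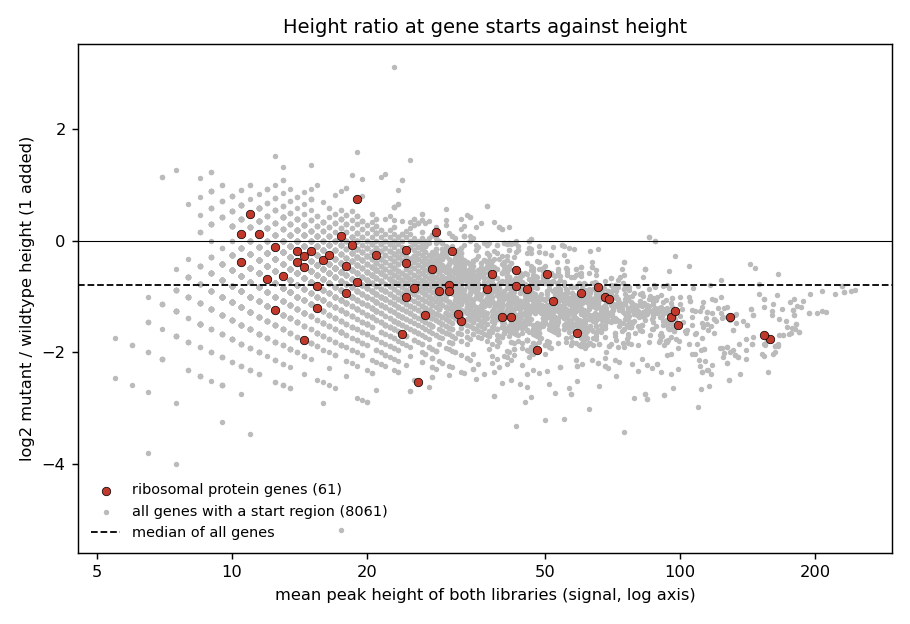
Log2 ratio of mutant over wildtype height (1 added to each) against the mean height of both libraries (signal, log axis) for the 61 ribosomal protein starts and all 8061 start regions, with the median of all genes dashed. The ribosomal protein points lie within the cloud, from 0.74 at Rpl7 to -2.52 at Rps4x, and scaling the libraries would lift the ribosomal protein points by 0.96 to 1.06.

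Within the start region, SRF summits lay just upstream of ribosomal protein genes. The summit, the highest point of a called interval, had a median position of -86 bp from the gene start in mutant (49 genes) and -85.5 bp in wildtype (60 genes). Summits were upstream of the start at 43 of 49 genes in mutant (87.8%) and 50 of 60 in wildtype (83.3%), against 67.8% and 67.1% of all genes. They fell from 250 bases before to 50 after the start at 39 genes in mutant (79.6%) and 44 in wildtype (73.3%), against 57.3% and 58.6%. Where both libraries had an interval, the summits were within 100 bp of each other at 40 of 48 genes (83.3%), against 81.6% of all genes. The position was thus alike in the libraries at near the share of all genes, while the heights as deposited were not alike.

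**Figure D3:**
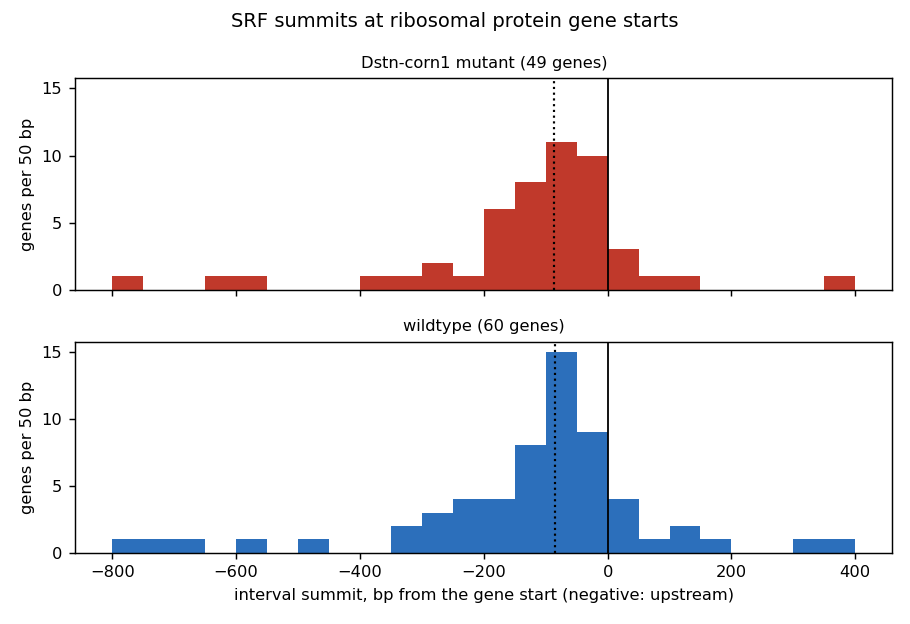
Number of ribosomal protein genes per 50 bp by the position of the interval summit from the gene start (bp, negative upstream), in Dstn-corn1 mutant (49 genes, upper panel) and wildtype (60 genes, lower panel). The dotted medians, -86 bp in mutant and -85.5 bp in wildtype, nearly coincide.

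Most of these start regions were also assigned to other genes. Of the 61 start regions, 9 were assigned to the ribosomal protein gene alone, against 3188 of 8061 over all genes. Among mitochondrial ribosomal protein genes 16 of 64 were assigned to 1 gene. Another gene's start lay within 1 kb at 19 of the 61, and 12 had one on the opposite strand. A small nucleolar RNA gene was also assigned to 17. The counts of neighbouring starts and of small nucleolar RNA genes were not made over all genes. Small nucleolar RNAs guide the modification of ribosomal RNA and are commonly held in introns of ribosomal protein genes. Over the 42 starts without another gene's start within 1 kb the median log2 ratio was -0.90, and 18 of them passed the 2-fold rule as lower in mutant. Starts of this kind were not counted over all genes, of whose start regions 38.8% passed the rule.

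The CArG box was rare in the promoters. RefSeq promoter windows, 250 bases before to 50 after the start, were matched for 57 of the 77 genes, of which 43 had a start region. A CArG box with every letter matched on either strand was in 1 of the 57 (1.75%), against 1.58% of all 27025 promoters. It was 1 of the 43 (2.33%), against 1.18% of the 6345 promoters whose gene had a start region. That promoter was Rpl10a, shown above with the box in capitals at -182 to -173 from the RefSeq start. The summits at Rpl10a were at -7 in mutant and -23 in wildtype, so the box lay 166 and 150 bp from them. With 1 mismatch allowed, 10 of the 57 matched (17.5%), against 21.3% of all promoters. Of the 43, 7 matched (16.3%), against 15.4% of all promoters with a start region. In Rplp0 a pair of such near matches overlapped from 16 to 26 bases after the start, the capitals in its sequence. A match describes letters, and the lack of one says only that these letters are not in the window.

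The ETS core and a pyrimidine start were more frequent in the family than in promoters at large. The ETS core CCGGAAG was in 23 of 57 (40.4%), against 9.24% of all promoters and 35.5% of mitochondrial ribosomal protein promoters. Among promoters with a start region it was in 19 of 43 (44.2%), against 22.4%. Of the 27 cores in the 23 promoters, 19 began from 100 bases before to 50 after the start, as in Rpl38, Rpl37 and Rps18 above. CTTT on the gene strand within 5 bases of the start was a crude stand-in for the TOP motif. It was in 12 of 57 (21.1%), against 4.73% of all promoters and 3.23% of mitochondrial ribosomal protein promoters. Among promoters with a start region it was in 10 of 43 (23.3%), against 4.26%. Rpl38, above, is one of the 12. That count depends on the RefSeq start, since 10 of the genes have several RefSeq starts and a window on an upstream one places the pyrimidine run elsewhere.

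The SP box GGGCGG was in 34 of 57 promoters (59.6%), against 36.2% of all promoters and 50% of mitochondrial ribosomal protein promoters. Among promoters with a start region it was in 29 of 43 (67.4%), against 69.5%. The YY1 core AAGATGG was in 8 of 57 (14%), against 6.49% of all promoters and 17.7% of mitochondrial ribosomal protein promoters. With a start region it was in 5 of 43 (11.6%), against 7.88%. The E box CACGTG, a Myc site, was in 5 of 57 (8.77%), against 7.25% of all promoters and 6.45% of mitochondrial ribosomal protein promoters. With a start region it was in 4 of 43 (9.3%), against 10.3%. Median GC content was 58.0% in ribosomal protein promoters, 62.3% in all promoters with a start region and 52.7% in all promoters, and its part in these counts was not tested.

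**Figure D4:**
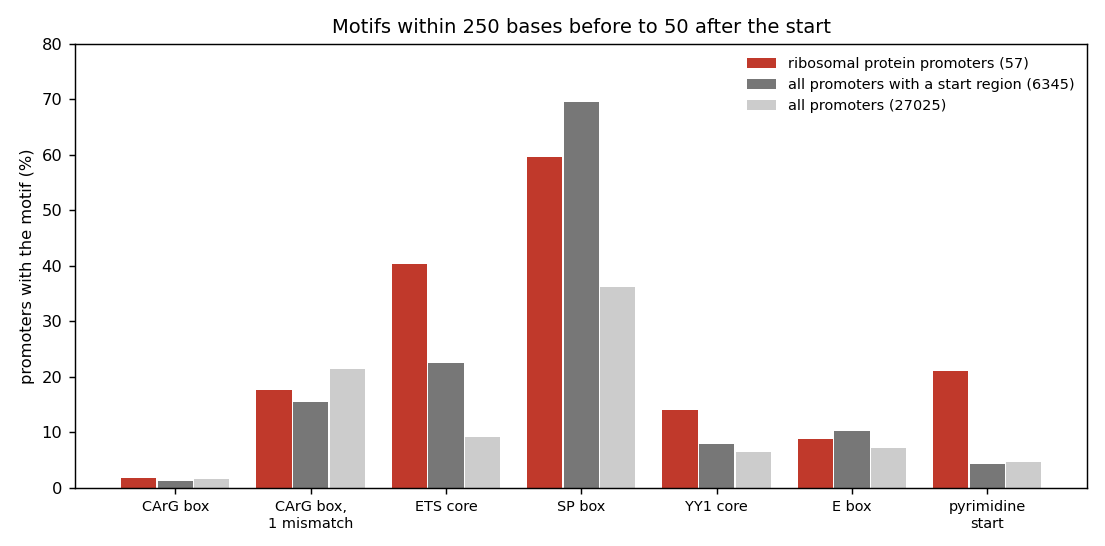
Share of promoters (%) that hold each motif, for the 57 ribosomal protein promoters, the 6345 promoters of genes with a start region and all 27025 promoters. The ribosomal protein bar is the highest of its group for the ETS core (40.4%), the YY1 core (14%), the pyrimidine start (21.1%) and, by 1 promoter, the CArG box (1.75%). Of the 57 promoters, 14 had no start region. Mitochondrial ribosomal protein promoters, not shown, held the YY1 core in 17.7%.

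Ribosomal protein starts with an ETS core had lower SRF regions than those without. The 19 with a core had a median height of 14 in mutant and 19 in wildtype and a median log2 ratio of -0.60. The 24 without had 22 in mutant and 39 in wildtype, and a median log2 ratio of -1.04. The 4 highest starts shown, Rpl22, Rpl9, Rplp0 and Rpl5, held no ETS core in the window. Rpl26, the next highest with a matched window, did hold one, which began 5 bases after the start. The medians differed in the same direction for the SP box. They were 15 in mutant and 23 in wildtype for the 29 with it, and 22 and 44 for the 14 without. For CTTT they were 14.5 in mutant and 20 in wildtype for the 10 with it, and 21 and 39 for the 33 without. For the E box they were 17 and 22 for the 4 with it, and 19 and 27 without. In mutant the YY1 core (21 with, 18.5 without) went the other way. So did the CArG box with at most 1 mismatch (30 with, 18.5 without), and the exact one of Rpl10a. These are medians over genes of 1 library each. The splits were not made over all genes, and the ratios were not compared within classes of height.

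Away from the start, the highest region of some ribosomal protein genes was at the start of another gene. The highest region lay at the start for 37 of the 77 genes and farther than 1 kb for 40. In 15 of those 40 it was centred within 1 kb of the start of another gene. How often this holds over all genes was not counted, so it is not shown to be particular to the family. The median log2 ratio over the highest regions was -1.05, against -1.08 over all genes, and the 2-fold rule put 42 of 77 lower in mutant, against 57.7% of all genes. None was 2-fold higher, against 0.198%. In all 73 were lower (background 95.9%) and 3 higher in mutant (background 3.23%), but with the libraries scaled 39 were higher and 37 lower, and 2 were 2-fold lower (background 5.83%) and 4 2-fold higher (background 4.2%). With the average signal 20 of 77 were 2-fold lower (26%), against 30.4% of all genes.

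The tallest of all was assigned to Rps10, a protein at the mRNA entry side of the small subunit, with 113 in mutant and 259 in wildtype (log2 ratio -1.19). It lay 11797 bp downstream of the Rps10 start and 7 bp from that of Nudt3, while the start of Rps10 itself had 14 in mutant and 24 in wildtype. Assignment by neighbourhood thus gave Rps10 a height that its own start did not have.

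Rpl3, which reaches towards the peptidyl transferase centre, had 61 in mutant and 101 in wildtype at -5408 bp (log2 ratio -0.72). Rpl23a, at the tunnel exit, had 42 in mutant and 116 in wildtype at 5587 bp downstream (log2 ratio -1.44), near the start of Tlcd1. Rpl7a had 22 in mutant and 122 in wildtype at -7736 bp (log2 ratio -2.42), at the start of Surf6, against 9 in mutant and 12 in wildtype at its own start. The very low ratio listed under Rpl7a thus belongs to a region at the start of its neighbour. Rpl4 had 28 in mutant and 35 in wildtype at 6013 bp downstream (log2 ratio -0.31), at the start of Snapc5. Rpl41, the smallest ribosomal protein, had 31 in mutant and 44 in wildtype at 1517 bp downstream (log2 ratio -0.49), at the start of Zc3h10. Rpl23 had 21 in mutant and 28 in wildtype at its own start (log2 ratio -0.40).

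Counted by number, 25 genes had 1 region, 34 had 2 and 18 had 3 or more, with at most 5, in Rpl22 and Rplp2. Besides genes described above, those with 3 or more included Rpl13, Rpl13a, Rpl24 and Rpl3l. Rpl13 had 14 in mutant at each of 3 downstream regions and 23, 27 and 34 in wildtype. Rpl13a, a gene rich in intronic small nucleolar RNAs, had 33 in mutant and 71 in wildtype at its start and 37 in mutant and 100 in wildtype at the start of Flt3l. A further region, at 1237 bp, was called in mutant alone, with 15 in mutant and 12 in wildtype. Rpl24 had 23 in mutant and 33 in wildtype at its start. In Rplp2 a region 7604 bp downstream was higher in mutant, with 19 in mutant and 14 in wildtype.

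The 90 regions of the family beyond 1 kb had a median log2 ratio of -1.02, against -1.1 over all such regions, and the 2-fold rule put 47 lower in mutant, against 59.1%. In the 42 genes with both kinds of region, the ratio at the start was above the one at the highest region elsewhere in 24, below it in 17 and equal in 1. The start held the higher region of the pair in 15 of these genes by mutant height and 19 by wildtype height. Such pairs were not counted over all genes, whose median log2 ratio was -0.79 at start regions and -1.1 beyond 1 kb.

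Of the 77 genes, 16 had no start region. Rpl3l, a paralog of Rpl3 used in heart and skeletal muscle, had its highest region at -3341 bp, at the start of Ndufb10, with 39 in mutant and 82 in wildtype. Rps24 had 40 in mutant and 95 in wildtype at -3635 bp, at the start of Polr3a, a subunit of RNA polymerase III. Others without one were Rpl6, Rpl13, Rpl17, Rpl19, Rpl28, Rpl37a, Rpl39, Rpl41, Rps13, Rps15a, Rps16, Rps27 and Rps28. Over these named genes the highest regions ranged in mutant from 8 at Rpl28 to 31 at Rpl41 and in wildtype from 20 at Rps27 to 68 at Rpl37a.

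Genes made as ribosomal protein fusions, or that the symbol rule leaves out, had low to moderate starts except Rps3a1. Fau, the source of Rps30, had 27 in mutant and 39 in wildtype at its start. None of the 5 listed genes of this kind was 2-fold lower in mutant at its start, against 38.8% of all genes. Rps27l, which the rule keeps and which is a p53-inducible paralog of Rps27 in human cells, had 9 in mutant and 15 in wildtype at its start. Rps3a1, looked at after its values were seen, had 45 in mutant and 164 in wildtype at its start, a height that among the 61 starts Rpl22, Rpl9 and Rplp0 exceeded in wildtype.

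Median start heights of other translation genes were 16 in mutant and 25 in wildtype for initiation factors, and 17 in mutant and 26.5 in wildtype for elongation and termination factors. They were 18 in mutant and 29 in wildtype for ribosome biogenesis genes, and 15 in mutant and 25 in wildtype for other TOP and control genes. The corresponding medians were 19 in mutant and 33 in wildtype for cytoplasmic ribosomal protein genes. Of 70 mitochondrial ribosomal protein genes with a region, which serve the separate ribosome of mitochondria, 64 had a start region (91.4%), with medians of 19.5 in mutant and 32.5 in wildtype. Their median log2 ratio was -0.97, and the 2-fold rule put 32 of 64 lower in mutant, against 38.8% of all genes. By class of mean height, 7 of 24 mitochondrial and 3 of 24 cytoplasmic starts were 2-fold lower up to a height of 20, against 26.3% of all genes in the class. Between 20 and 40 the rule held for 7 of 22 mitochondrial and 7 of 19 cytoplasmic starts, against 41.4%. Between 40 and 80 it held for 14 of 14 mitochondrial and 6 of 12 cytoplasmic starts, against 69.6%, and above 80 for 4 of 4 mitochondrial and 6 of 6 cytoplasmic starts, against 87.2%. The difference between the ribosomes was not tested. Mrps15 was the highest in wildtype, with 41 in mutant and 195 in wildtype.

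Over all genes with a start region the median log2 ratio was -0.79, and 38.8% were at least 2-fold lower. Ribosome biogenesis genes had start regions in 39 of 50, with a median log2 ratio of -0.74 and 18 at least 2-fold lower. Initiation factors had them in 31 of 36, with a median log2 ratio of -0.56 and 9 at least 2-fold lower. There, Eif4g2 had 117 in mutant and 242 in wildtype, and Eif2b3, a subunit of the eIF2 exchange factor, had 32 in mutant and 200 in wildtype. Elongation and termination factors had them in 10 of 10, with a median log2 ratio of -0.55 and 2 at least 2-fold lower. Other TOP genes and translation control genes had them in 14 of 22, with a median of -0.72 and 5 at least 2-fold lower. Among those, the TOP gene Tpt1 had 23 in mutant and 39 in wildtype, and the snoRNA host Snhg1 had 29 in mutant and 110 in wildtype.

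**Figure D5:**
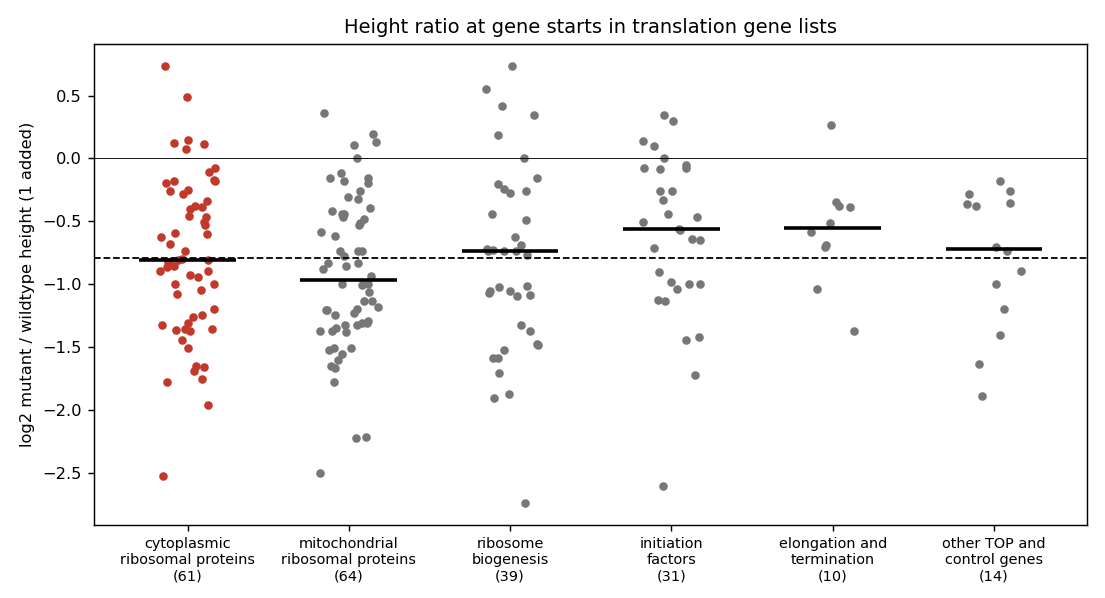
Log2 ratio of mutant over wildtype height (1 added to each) at the start of each gene in 6 lists, with the number of genes under each name, list medians as bars and the median of all genes (-0.79) dashed. Medians run from -0.55 to -0.97 with the cytoplasmic ribosomal proteins at -0.81, and with the libraries scaled the median of the cytoplasmic ribosomal proteins is 0.23, as is that of all genes.

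By contrast, 11 of 13 genes listed as known SRF targets had a start region, with medians of 43 in mutant and 43 in wildtype. Their median log2 ratio was -0.18, and 8 of the 11 starts were lower in mutant, 2 higher and 1 equal. Of these, 1 was 2-fold lower and 1 was 2-fold higher in mutant, against 38.8% and 0.323% of all genes. Once the libraries were scaled, the median log2 ratio was 0.87 over these genes and 0.23 over the ribosomal protein starts. At their highest region, before scaling, all 13 genes were lower in mutant, against 95.9% of all genes. The medians there were 54 in mutant and 66 in wildtype, with a median log2 ratio of -0.26, against -1.08 over all genes.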

How the data were processed

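Cornea SRF ChIP and input libraries were sequenced on an Illumina HiSeq, per the labels. The submitters' processing notes name BWA and the mm10 build. The interval caller, its threshold and any scaling of the libraries were not given in the sources used. The deposited tables hold intervals per library, merged regions and their assigned genes; per the file headers, the signal columns give each region's peak and average, and every interval had a height of at least 9. Their ratio of peak values was not used. Distances to gene starts are the authors'. Depth is unknown, so no counting interval is given.

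A ratio is log2((mutant height + 1) / (wildtype height + 1)), so differences between low regions are understated. A gene's highest region is the one of highest mean height, the first listed of ties. With 1 library per genotype nothing was tested. Members and gene lists were chosen with earlier results of these data known. Genes named are the 10 with the highest regions, the 5 highest and 5 lowest ratios among regions of at least the median height of 28, those with a region called in mutant alone and those with 3 or more regions; others were named after their values were seen, and a few genes are counted but not reported here by name. Promoters are from RefSeq (GRCm38.p6), 1 a gene, at the start nearest to the authors'; 54 of 57 lay within 50 bp. Motifs were searched on both strands, CTTT on the gene's strand only. Alternatives were the average value, a pseudocount of 5, other start distances, height minimums, regions of 1 gene, and scaling to a common median. Python 3.11.15, numpy 2.4.6, pandas 2.3.3 and matplotlib 3.10.9 were used; the ratio code was checked on simulated data.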

Additional observations from a re-analysis of the deposited data

How the results depend on the processing

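No paired analysis was possible because there was 1 library for each genotype, and none could be left out. The common scale decides the direction. With the libraries scaled to a common median, the median log2 ratio over the highest regions was 0.0076 instead of -1.05, with 2 genes at least 2-fold lower and 4 at least 2-fold higher in mutant, and over the start regions it was 0.23 instead of -0.81. With the average value in place of the peak, the median over the highest regions was -0.71 (all genes -0.79) and 20 genes were at least 2-fold lower (26%, all genes 30.4%). With regions within 1 kb of the start it was -0.81 (all genes -0.79) and 22 of 61 genes were (all genes 38.8%). Over the 17 genes with a region of their own it was -1.08 (all genes -1.11) and 9 were. The share over all genes with such a region is not given here. With intervals of at least the median height of 24, 43 of 77 genes were bound in mutant cornea, and with regions of at least the median height of 28, 35 had a start region. In 29 other combinations the direction was kept and counts stayed within 1.5 times. Among them were 49 genes bound in mutant and 60 in wildtype by intervals within 1 kb of the start. A pseudocount of 5 put 33 of 77 genes 2-fold lower, against 7730 of all 16697 genes. The mean over all regions put 31 of 77 lower, against 8978 of 16697. Counts of bound genes and of start regions under these settings were not made over all genes. Counts of motifs at any RefSeq start of a gene were 23 for the ETS core and 13 for CTTT. The lowest interval had a height of 9, but height alone did not make a call: a region of Rps27l with 17 in mutant had no mutant interval. At heights near 9 a few units set a ratio.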

Other observations

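Processed pseudogenes of ribosomal proteins, which the symbol rule leaves out, were looked at after the other values were seen. In the genes with an assigned region, 11 names of the form Rpl or Rps with -ps had 12 regions. None of these regions was within 1 kb of the pseudogene's start. The highest was at Rps15a-ps4, with 48 in mutant and 126 in wildtype at 8321 bp downstream. Over the 11 the median log2 ratio was -0.53, with median heights of 13 in mutant and 21 in wildtype, and the 2-fold rule put 2 lower in mutant. Over the highest regions of all genes the median log2 ratio was -1.08, and the rule put 57.7% lower. With the libraries scaled the median over the 11 was 0.52.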
